A study of Mus musculus with 2 samples.

Results

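The genes described here are the adhesion G protein-coupled receptors and the receptors that carry the name Gpr and a number. They were taken from the deposited table by name, as protein-coding rows whose symbol starts with Adgr, a family letter and a number, or consists of Gpr and a number. This gave 97 genes, 27 Adgr and 70 Gpr, of 21821 protein-coding rows and 55323 rows in all. Their RNA was measured in TgS1 cells, a mouse Schwann cell line with a human TTR V30M transgene, which encodes a transthyretin variant of hereditary amyloidosis. Both libraries carry this transgene, and 1 came from long-term culture in DMEM, a basal medium, and the other from long-term culture in SCM, a medium whose name the labels do not spell out. The labels say neither which promoter drives the transgene nor whether the line is 1 clone. There was 1 library per medium, so the differences below have no replicate check and no test was made of them.

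G protein-coupled receptors cross the membrane repeatedly and pass signals from outside the cell to heterotrimeric G proteins. Adhesion receptors have long extracellular parts that bind matrix or neighbouring cells, and most cut themselves at a site next to the membrane, so that a tethered peptide can switch on the remaining part. In Schwann cells, the glia of peripheral nerves, Adgrg6 (also called Gpr126) raises cyclic AMP and is needed for myelination. Many genes named Gpr encode receptors whose ligand was unknown when they were named. Some of them encode proteins of inner membranes whose role as receptors is uncertain.

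The levels are FPKM, that is reads scaled to the length of the gene and to the total reads assigned to rows in the library. The reads behind every FPKM value could be recovered as whole numbers. They summed over all rows to 29085791 in DMEM and 36666676 in SCM, and reads not assigned to a row are not known. A gene was counted as measured at 1 FPKM or more in 1 or both libraries. Differences are given as ratios of FPKM with 95% intervals (exact, Clopper-Pearson) that follow from the reads. These intervals cover counting error only, and reads amplified without molecular identifiers are not independent molecules. Genes were called where the media differed at least 2-fold on the scale of log2(FPKM + 1), which understates the ratio of low genes. Of the 10 Schwann cell markers looked at, 8 were measured (not Egr2 and Pou3f1), and their summed level was 4082 FPKM in DMEM and 3916 in SCM. Macrophage markers summed to 1.44 and 1.51 FPKM, with Cd68 measured and C1qa at 0. Endothelial markers summed to 0.0552 and 0.0277 FPKM, with none measured and Cdh5 and Kdr at 0. Fibroblast markers summed to 0.913 FPKM in DMEM and 3.21 in SCM, with Col1a2 measured and Col1a1 and Lum at 0. The part of such cells in the results was not tested. Neuron markers summed to 68.0 and 51.0 FPKM, with Tubb3 and Syn1 measured and Rbfox3 at 0. Perineurial markers summed to 3.42 and 3.39 FPKM, with Slc2a1 measured and Cldn1 at 0. Melanocyte markers summed to 6.33 and 7.06 FPKM, with Mitf measured and Dct, Mlana and Tyr at 0.

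Most of the 97 receptor genes had no or few reads in either library. In bulk RNA, fewer cells with a gene and less of its RNA per cell cannot be told apart. There were 52 genes with 0 reads in both, 25 with reads but under 1 FPKM, and 20 that were measured. The share at 0 was 53.6%, against 34.1% of all protein-coding rows, and the share measured was 20.6%, against 46.2%. At 0 reads, the limit of 3 reads allows between 0.00415 and 0.0958 FPKM in DMEM and between 0.00329 and 0.0760 FPKM in SCM, depending on gene length. Of 113 genes for ribosomal proteins, RNA polymerase II subunits, nucleoporins and chaperonin subunits, 1 had 0 reads in a library. This was Cct8l1, a chaperonin-like gene. A 0 was thus not common among genes that every cell uses, which does not bear on genes of low level.

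The adhesion families differed in how many of their genes were measured, though each family has few genes. All 3 genes of family A were measured, with 2 of 7 genes of family G and 2 of 4 of family L. None of the genes of families B, D, E, F and V was measured, although all of these families but V had a gene with reads. In the F family 4 of 5 genes had 0 reads in both libraries. Adgre1, which encodes the macrophage antigen F4/80, and Adgrl4, an endothelial receptor gene, were both at 0, with floors of 0.0319 and 0.0181 FPKM in DMEM. Adgrb3 and Adgrl2 were at 0 as well, although both have long gene models and low floors of 0.00556 and 0.00727 FPKM in DMEM. The widest gap in level between neighbouring receptor genes lay in the G family. Adgrg5, Adgrg1 and Adgrg3 follow each other among the protein-coding rows of chromosome 8. Adgrg1 had 41.4 FPKM in DMEM and 52.5 in SCM, Adgrg3 0.398 and 0.636 FPKM, and Adgrg5 had 0 reads.

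**Figure D1:**
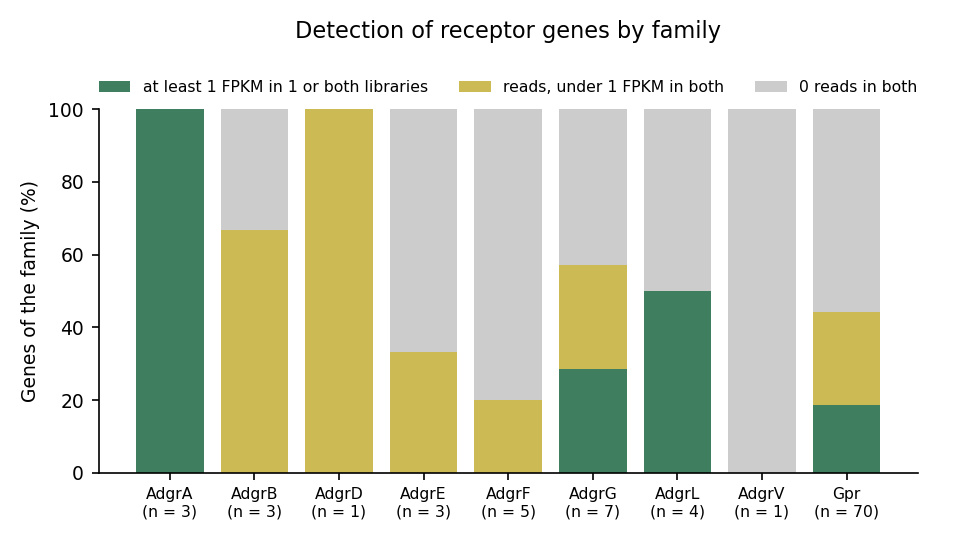
The share of genes (in percent) that were measured, had reads under 1 FPKM, or had 0 reads in both libraries, for each adhesion family and for the genes named Gpr, with the number of genes under each bar. All 3 genes of family A were measured, and 39 of the 70 Gpr genes had 0 reads.

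The measured Gpr genes were often those not annotated as receptors. The gene ontology column of the deposited table gives G protein-coupled receptor activity to 88 of the 97 genes, of which 13 were measured. Of the 9 genes without that term, 7 were measured, namely Gpr108, Gpr180, Gpr137, Gpr107, Gpr89, Gpr155 and Gpr146. A group of proteins of inner membranes or of uncertain receptor function had been listed, and 6 of its 7 members with a row were measured. The listed ligand sensors named Gpr were low. Of 13 such genes for receptors that sense protons, lipids or metabolites, 9 had 0 reads in both libraries and 0 were measured. This does not hold for all such sensors, since some lipid receptor genes under other names, among them Lpar1 and S1pr1, were measured. Of the constitutively active receptors that raise cyclic AMP, Gpr6 and Gpr12 were at 0 and Gpr3 had 3 reads in DMEM and 0 in SCM. Gpr37, a receptor of myelinating glia, was at 0 with floors of 0.0170 FPKM in DMEM and 0.0135 in SCM, and Gpr17, of the oligodendrocyte lineage, had 9 reads in DMEM and 2 in SCM.

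The promoters of Gpr155, Gpr153 and Adgrg6 are shown because the first and second are the Gpr genes past 2-fold on the log2(FPKM + 1) scale, in opposite directions, and Adgrg6 is the myelination receptor. Each runs from 250 bases before to 50 bases after a RefSeq start (GRCm38.p6), and the capitals mark GC boxes. The Gpr155 window is chr2:73386431-73386730 on the minus strand, that of the first of the listed Gpr153 starts chr4:152273862-152274161 on the plus strand, and that of Adgrg6 chr10:14544987-14545286 on the minus strand.
Gpr155: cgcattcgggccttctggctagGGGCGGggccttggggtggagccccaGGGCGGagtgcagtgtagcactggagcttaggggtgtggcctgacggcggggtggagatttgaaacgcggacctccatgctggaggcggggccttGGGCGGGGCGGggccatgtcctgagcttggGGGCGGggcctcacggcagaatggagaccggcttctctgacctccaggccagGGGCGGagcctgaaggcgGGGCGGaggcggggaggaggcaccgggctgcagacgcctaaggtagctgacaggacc
Gpr153: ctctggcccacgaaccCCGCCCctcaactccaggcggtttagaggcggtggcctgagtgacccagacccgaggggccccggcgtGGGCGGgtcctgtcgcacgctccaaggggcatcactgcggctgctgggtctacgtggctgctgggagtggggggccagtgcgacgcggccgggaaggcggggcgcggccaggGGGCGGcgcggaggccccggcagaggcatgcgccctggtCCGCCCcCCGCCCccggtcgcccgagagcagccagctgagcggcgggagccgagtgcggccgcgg
Adgrg6: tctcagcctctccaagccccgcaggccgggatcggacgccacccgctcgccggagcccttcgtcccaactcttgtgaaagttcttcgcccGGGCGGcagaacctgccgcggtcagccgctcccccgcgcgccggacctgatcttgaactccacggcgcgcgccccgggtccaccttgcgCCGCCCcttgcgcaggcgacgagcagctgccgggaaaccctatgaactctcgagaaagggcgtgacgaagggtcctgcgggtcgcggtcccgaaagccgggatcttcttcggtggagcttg
The GC box was searched as GGGCGG on both strands, and overlapping matches count separately. The Gpr155 window held 7 matches, that of Gpr153 5 and that of Adgrg6 2. Of the 20 measured genes, 19 had entries, 34 in all, and Adgra2 had none. At least 1 GC box was in 15 of the 34 windows, and in 35.7% of all 32851 windows of the RefSeq table. The SOX core ACAAAG was in 4 of the 34 windows, against 18.7% of all, and lay in Adgra3, Adgrg1, Gpr141 and Gpr63. The E-box CACGTG was in 2 windows, against 7.15%, and the cyclic AMP response element TGACGTCA in 0, against 1.79%. These matches describe letters in the windows and show no binding.

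Adhesion receptors held the 3 highest levels in both media. Adgrg1, Adgrl3 and Adgrg6 together made up 53.7% of the summed FPKM of the 97 genes in DMEM and 55.1% in SCM. The sum itself was 171 FPKM in DMEM and 170.2 in SCM. Within it, the G family summed to 58.7 FPKM in DMEM and 74.1 in SCM, and the L family to 35.8 and 22.1 FPKM.

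Adgrg1 (ENSMUSG00000031785), also called Gpr56, binds collagen III and transglutaminase 2 and acts in the development of glia. It lies on chromosome 8, 94974751 to 95014217 in GRCm38. Its reads numbered 6534 in DMEM and 10444 in SCM, a ratio of FPKM of 1.27 (1.23 to 1.31). Among protein-coding rows Adgrg1 ranked 856 in DMEM and 613 in SCM. Adgrg6 lies on chromosome 10, 14402583 to 14545659. The library from DMEM gave 5932 reads (16.7 FPKM) and that from SCM 9174 (20.5 FPKM), a ratio of 1.23 (1.19 to 1.27). Both G family receptors therefore lay slightly above 1 in their ratio, and neither was near 2-fold.

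The latrophilins of family L bind teneurins and FLRT proteins of neighbouring cells. Adgrl3 (chromosome 5, 81020138 to 81825133 in GRCm38) had 17481 reads in DMEM (33.9 FPKM) and 13485 in SCM (20.7 FPKM), which is 1.63-fold lower in SCM (1.60 to 1.67). Its rank went from 1131 in DMEM to 2013 in SCM. Adgrl1 was lower still in level, at 1.93 and 1.43 FPKM, and 1.35-fold lower in SCM (1.19 to 1.54). Adgrl3 thus ranked second of the 97 genes in both media, and was close to Adgrg6 in SCM.

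Family A had members on both sides. Adgra2 (chromosome 8, 27085583 to 27123436 in GRCm38), also called Gpr124, works with the membrane protein RECK as a co-receptor of Wnt7 ligands. Its reads numbered 93 in DMEM (0.554 FPKM) and 458 in SCM (2.16 FPKM), a ratio of 3.91 (3.12 to 4.94). Adgra1 had 10.6 FPKM in DMEM against 6.63 in SCM, which is 1.60-fold lower (1.48 to 1.72), and Adgra3 7.55 and 5.66 FPKM, 1.33-fold lower (1.25 to 1.43). Adgra2 was the lowest of the 3 in both media. Its row shares 73 exonic bases with Brf2 on the opposite strand, at 129 reads in DMEM and 187 in SCM.

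**Figure D2:**
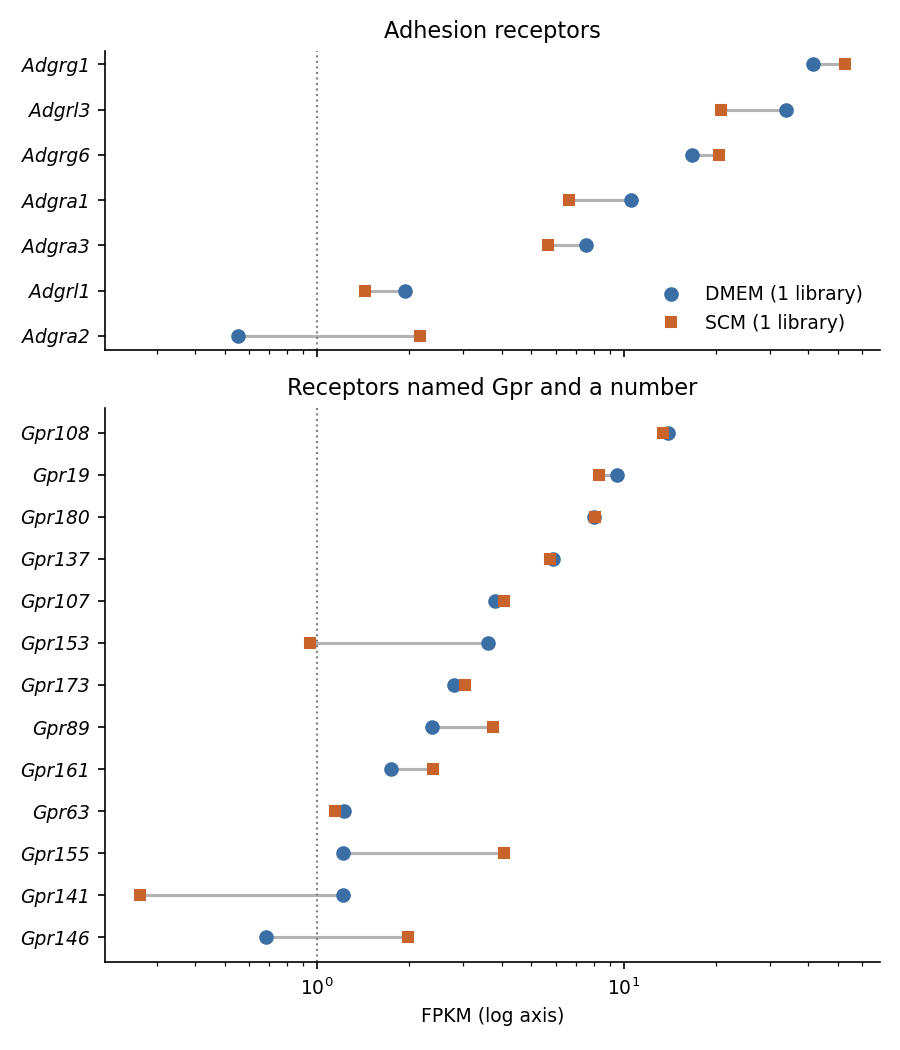
FPKM (log axis) in the DMEM library (circles) and the SCM library (squares) of the 7 measured adhesion receptor genes and the 13 measured Gpr genes. The dotted line marks 1 FPKM. Adgrg1, Adgrl3 and Adgrg6 lie at the top, and the widest gaps are those of Adgra2, Gpr155, Gpr153, Gpr146 and Gpr141.

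Of the 20 measured genes, 2 were at least 2-fold higher in SCM (Gpr155 and Adgra2) and 1 at least 2-fold lower (Gpr153). Over all measured protein-coding rows, 2.48% were called higher and 1.44% lower. Over all measured rows the shares were 3.1% and 2.8%. With 20 genes these counts are too small to set the receptors apart from the rest. Moreover, 4 of the 20 reached 1 FPKM in only 1 library, Adgra2, Gpr153, Gpr146 and Gpr141, and so had to differ to some degree. The median log2 ratio of the 20 was -0.01, against -0.03 over all measured protein-coding rows, with 10 above 0 and 10 below. The interval of the ratio excluded 1 for 14 of the 20 and for 70.3% of protein-coding rows. The 9 genes with at least 5 FPKM in both libraries lay between -0.68 and 0.34 in log2 ratio, and none was called.

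Gpr155 encodes a lysosomal membrane protein that senses cholesterol. It lies on chromosome 2, 73341506 to 73386572 in GRCm38. The DMEM library held 236 reads (1.21 FPKM) and the SCM library 997 (4.07 FPKM), a 3.35-fold higher level in SCM (2.91 to 3.88). Gpr153, an orphan receptor gene on chromosome 4 (152274232 to 152285337), stood at 410 reads in DMEM (3.61 FPKM) against 136 in SCM (0.949 FPKM), so that it was 3.80-fold lower there (3.12 to 4.65). The receptors thus differed by similar factors in opposite directions, both from low levels.

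Another pair passed 2-fold as a plain ratio but not on the log2(FPKM + 1) scale. Gpr146, a receptor linked to blood cholesterol through the liver, went from 135 reads in DMEM (0.684 FPKM) to 494 in SCM (1.99 FPKM), 2.90-fold higher (2.39 to 3.54). Gpr141, an orphan receptor gene, had 211 reads in DMEM (1.21 FPKM) but 58 in SCM (0.265 FPKM), which is 4.59-fold lower (3.41 to 6.24). Counted in plain FPKM with an interval that excludes 1, 3 of the 20 were at least 2-fold higher and 2 lower, against 4.05% and 2.62% of measured protein-coding rows.

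**Figure D3:**
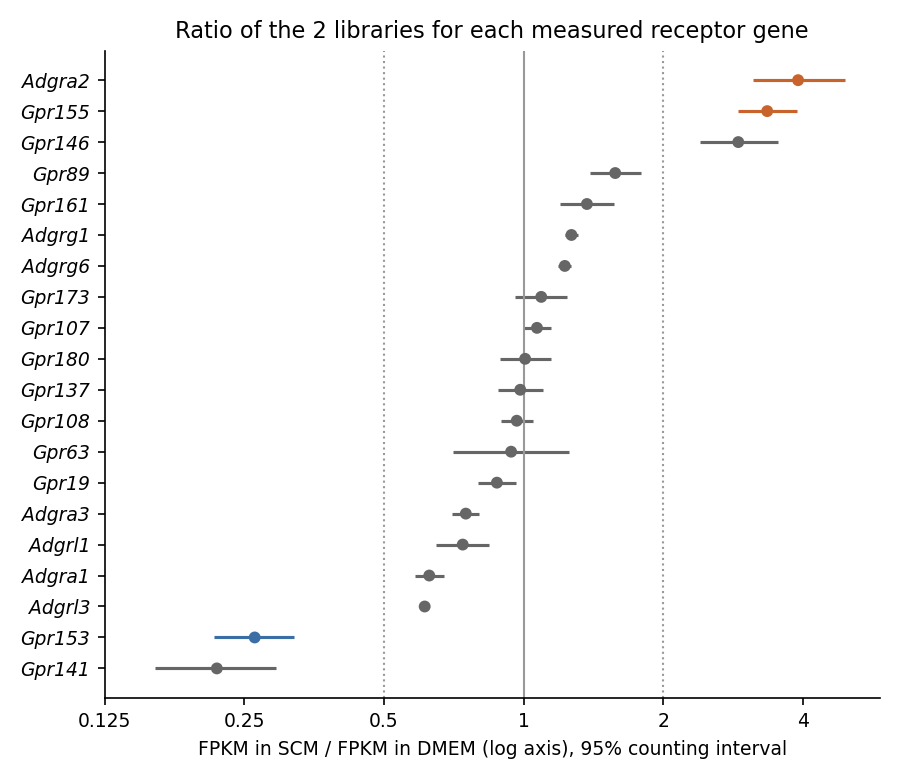
Ratio of FPKM in SCM to FPKM in DMEM (log axis) of the 20 measured receptor genes, with 95% counting intervals. Solid and dotted lines mark a ratio of 1 and 2-fold, orange marks genes called higher and blue the gene called lower on the log2(FPKM + 1) scale. Gpr146 and Gpr141, in grey, lie past 2-fold in plain FPKM only.

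The remaining measured Gpr genes lay within 2-fold. Gpr89, which encodes a regulator of Golgi acidity, had 2.38 and 3.75 FPKM in DMEM and SCM, 1.58-fold higher (1.39 to 1.79). Gpr161, a receptor of the primary cilium that holds back hedgehog signalling, had 1.75 and 2.39 FPKM, 1.37-fold higher (1.20 to 1.57). Gpr19, an orphan receptor gene, had 9.50 and 8.32 FPKM, 1.14-fold lower (1.04 to 1.26). Each of these intervals excluded 1, as did those of 70.3% of measured protein-coding rows.

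For 6 others the interval included 1. Gpr108, the highest of the Gpr genes, had 13.9 FPKM in DMEM and 13.5 in SCM (ratio 0.966, 0.894 to 1.05), and its paralog Gpr107 3.80 and 4.06 FPKM (1.07, 0.997 to 1.15). Both encode proteins of the Golgi. Gpr180 had 8.01 and 8.07 FPKM, with a ratio of 1.01 (0.887 to 1.14). Gpr137 had 5.87 and 5.77 FPKM (0.983, 0.880 to 1.10), and its row shares 524 exonic bases with Bad on the opposite strand. Gpr173, of a family of receptors conserved in brain, had 2.79 and 3.05 FPKM (1.09, 0.960 to 1.24), and Gpr63 1.22 and 1.15 FPKM (0.940, 0.706 to 1.25). Differences of 2-fold lay outside all these intervals. In all, 11 of the 20 measured rows share exonic bases with another row, 7 of them with a row of at least 10 reads in a library. No source used here states the strand setting of the counting, and reads in those stretches may have been lost or shared.

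**Figure D4:**
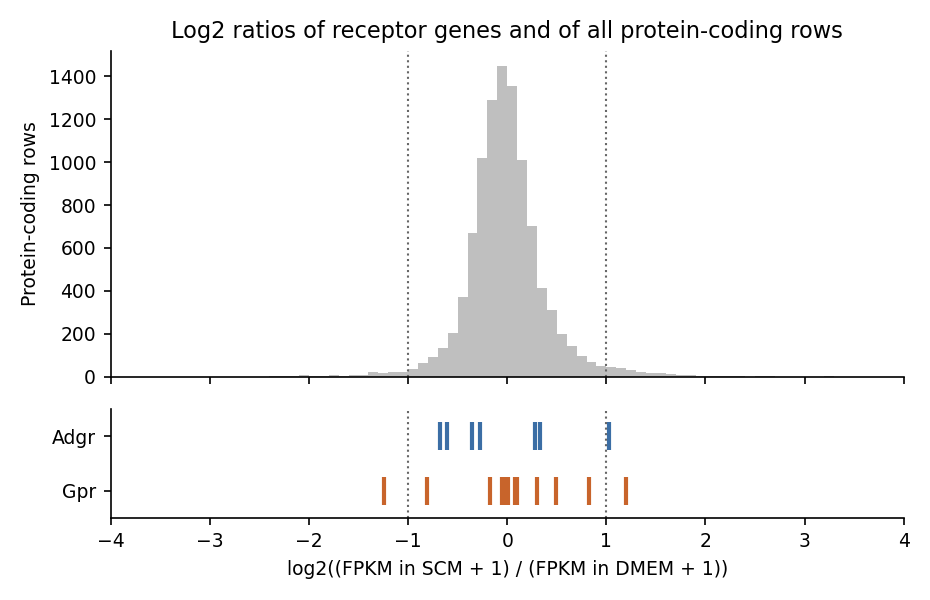
Upper part, number of measured protein-coding rows by log2 ratio of SCM to DMEM on the log2(FPKM + 1) scale (3 rows lie outside the axis), and lower part, 1 stroke for each measured Adgr and Gpr gene. Dotted lines mark 2-fold, and 2 receptor strokes lie above and 1 below them.

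Among the 25 genes with reads but under 1 FPKM, the highest level was 0.636 FPKM, that of Adgrg3 in SCM. Adgrg3 had 80 reads in DMEM and 161 in SCM, 1.60-fold higher (1.21 to 2.11). Adgre5, which encodes the leukocyte receptor CD97, had 18 and 61 reads, a ratio of 2.69 (1.57 to 4.83). The Adgre5 row shares 895 exonic bases with Ddx39a on the opposite strand, at 550 reads in DMEM and 480 in SCM. Adgrg2 had 27 and 81 reads (2.38, 1.52 to 3.83). Gpr179 had 6 and 32 reads (4.23, 1.74 to 12.4), and Gpr21 had 56 and 37 reads (0.524, 0.336 to 0.808). The Gpr21 row shares 74 exonic bases with Rabgap1 on the same strand, at 6471 reads in DMEM and 8059 in SCM. For Gpr157, with 61 and 75 reads, the interval included 1 (0.975, 0.686 to 1.39). At such read numbers the intervals are wide, and 10 of the 25 had no more than 3 reads in either library.

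The measured ligands and partners of the adhesion receptors were mostly at higher levels in SCM. Of 42 listed genes, 20 were measured, 4 were at least 2-fold higher and 1 lower, against 2.48% and 1.44% of measured protein-coding rows. Of the 20, 15 lay above 0 in log2 ratio, and the median was 0.37, against -0.03 over all measured protein-coding rows. The list and these counts include Psap, which is named below for Gpr37 and not for an adhesion receptor. The list was written with earlier results of these data known, in which the type IV collagens were already seen to be higher, so its median is no independent support.

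For Adgrg6, the known partners are collagen IV, laminin and the prion protein. Col4a1 had 5.48 FPKM in DMEM and 44.9 in SCM, Col4a2 6.45 and 32.0 FPKM, and the laminin chain gene Lamb1 16.1 and 72.7 FPKM. Lamc1 had 17.4 and 25.8 FPKM, and Prnp 28.0 and 45.0 FPKM, 1.60-fold higher (1.52 to 1.69). The alpha chain gene Lama2, needed for the laminin form that binds Adgrg6, had 0 reads in DMEM and 5 in SCM. The receptor itself differed 1.23-fold, so its level and those of its collagen partners differed by unequal factors.

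For Adgrg1, Tgm2 (transglutaminase 2) had 3.02 and 10.4 FPKM in DMEM and SCM, 3.44-fold higher (3.09 to 3.84), whereas Col3a1 had 1 read in DMEM and 3 in SCM. The tetraspanin gene Cd81, a membrane partner of Adgrg1, had 89.5 and 165 FPKM. For the latrophilins, Tenm3 was high, at 124 and 107 FPKM, Flrt3 had 13.3 and 17.5 FPKM and Flrt2 1.54 and 1.77 FPKM. Tenm2 was at 0. Reck, the partner of Adgra2, had 0.770 and 1.30 FPKM in DMEM and SCM, 1.69-fold higher (1.34 to 2.15). C1ql2, which encodes a ligand of the family B receptors, had 9.68 and 3.10 FPKM, 3.13-fold lower (2.68 to 3.66). The related C1ql3 had 3.19 and 4.38 FPKM, 1.37-fold higher (1.17 to 1.62). The receptor gene Adgrb3 was at 0. Cd55, the ligand of Adgre5, had 4 reads in DMEM and 0 in SCM. Psap, which encodes the precursor of proposed Gpr37 ligands, had 514 and 462 FPKM.

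**Figure D5:**
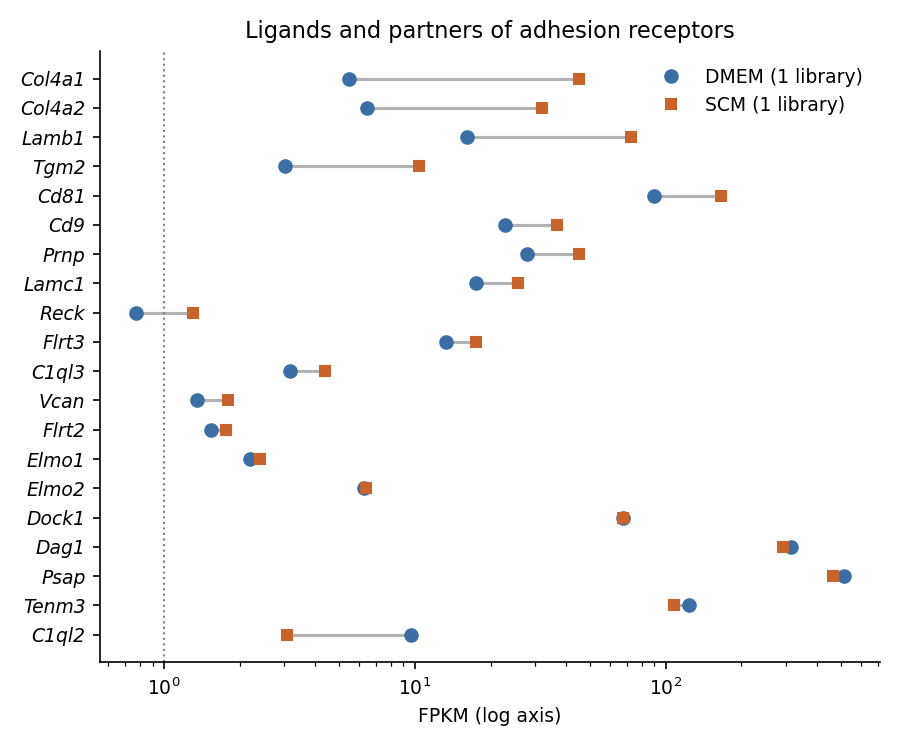
FPKM (log axis) in DMEM (circles) and SCM (squares) of the 20 measured genes of the ligand and partner list of adhesion receptors, which includes Psap, ordered by log2 ratio. Col4a1, Col4a2, Lamb1 and Tgm2 are the 4 genes at least 2-fold higher in SCM, and C1ql2 the 1 at least 2-fold lower.

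The measured G protein genes, through which such receptors signal, lay within 2-fold on the log2(FPKM + 1) scale with 1 exception. Of 13 alpha subunit genes, 7 were measured, and 0 were called. Gnas, the subunit that stimulates cyclic AMP synthesis and couples to Adgrg6, had 131 and 108 FPKM in DMEM and SCM, and Gnai2, an inhibitory subunit, 135 and 127 FPKM. Gna13, which couples to Adgrg1, had 24.8 and 30.0 FPKM, and Gnaq 29.3 and 34.4 FPKM. Of 16 beta and gamma genes 9 were measured, with 0 called lower and 1 called higher, against 1.44% and 2.48% of measured protein-coding rows. This was Gng11, at 58.9 and 119 FPKM and a ratio of 2.02 (1.91 to 2.15). Gnb4 had 12.1 and 7.27 FPKM, Gnb5 4.73 and 3.27 FPKM, and Gng12 17.9 and 23.6 FPKM.

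Regulators that end receptor signals had medians below 0. So had the beta and gamma subunits, at -0.22, and all measured protein-coding rows, at -0.03, while the alpha subunits had 0.05. Of 20 RGS genes, whose proteins speed the switching off of G proteins, 6 were measured and had a median log2 ratio of -0.76, with 2 of them called lower and 0 called higher, against 1.44% and 2.48% of measured protein-coding rows. That median was -0.17 without the filter, -1.25 at 5 FPKM or more, -0.46 with a pseudocount of 3 FPKM and -1.03 with 0.1 FPKM. Rgs8 had 2709 reads in DMEM (9.66 FPKM) against 1014 in SCM (2.87 FPKM), which is 3.37-fold lower (3.13 to 3.62). Rgs16 had 112 and 54.0 FPKM, a ratio of 0.483 (0.465 to 0.501). Rgs12 had 3.94 and 1.92 FPKM and Rgs20 2.44 and 1.04 FPKM, both past 2-fold as plain ratios only. Receptor kinases and arrestins had 6 of 7 genes measured, 0 called and a median of -0.12. Grk6 had 14.4 and 8.79 FPKM, Grk2 16.5 and 13.3 FPKM, Arrb2 3.17 and 2.70 FPKM, and Arrb1 7.05 and 7.85 FPKM.

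Related receptors outside the naming rule were looked at as well. Of the seven-pass cadherins, which are adhesion receptors under another name, Celsr2 was measured, at 1.35 FPKM in DMEM and 3.51 in SCM, a plain ratio of 2.60 (2.34 to 2.90). Of 25 other receptor genes listed, 10 were measured and 0 were called. Over measured protein-coding rows 2.48% were called higher and 1.44% lower, so 0 of 10 does not set these genes apart. Gpr137b, a lysosomal paralog of Gpr137, had 161 FPKM in DMEM and 174 in SCM, more than Adgrg1, the highest of the 97. Gprc5b had 14.7 and 28.6 FPKM (1.94, 1.85 to 2.05), Lpar1, a lysophosphatidic acid receptor gene, 5.92 and 3.12 FPKM, Lgr4 3.16 and 5.11 FPKM, and S1pr1 3.67 and 2.53 FPKM. Gpr37l1, the glial paralog of Gpr37, had 0 reads in DMEM and 70 in SCM. It stayed under 1 FPKM in both, at 0.841 FPKM in SCM.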

How the data were processed

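Total RNA of TgS1 cells was sequenced as 1 stranded library per medium, per the labels' protocols. The columns were matched to the samples by the name of the medium, and their names carry the replicate numbers 1 (DMEM) and 3 (SCM). The authors deposited FPKM values with gene lengths, biotypes and gene ontology terms. Per the submitters' processing notes, featureCounts 2.0.1, STAR 2.7.9a, cutadapt 3.1, Trimmomatic 0.39 and Trim Galore were used, with GRCm38.p6 and mm10, and neither their order nor their parameters are stated. FPKM multiplied by length in kilobases and divided by the value of 1 read gave whole reads in 100% of rows (tolerance 0.01). No count model was fitted to the reads, since each medium had 1 library.

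Ratios with intervals are of plain FPKM, and log2 ratios and calls used a pseudocount of 1 FPKM, in Python 3.11.15 with SciPy 1.17.1. The steps were tried on simulated reads with counting error only. Changes were put there into rows with a mean of at least 5 FPKM. The receptor genes called here lay below that level, so the simulation does not check their calls. Of the 97 genes, 96 matched GENCODE M21 by identifier, 1 at the same position and 93 with the same span elsewhere, so the build of the deposited coordinates is unsettled. Positions given are those of GENCODE M21 (GRCm38), and promoters those of RefSeq.

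Genes and lists were chosen with earlier results of these data known. All measured genes of the naming rule were named, and Adgrg3 with at least 100 reads. Up to 4 genes per partner list were named by largest absolute log2 ratio, with at least 1 in each direction where genes passed 2-fold in both, which put C1ql2 in place of Tgm2. Other genes under 1 FPKM and Tgm2, Lamc1, Prnp, Lama2, Col3a1, Cd81, Cd55, C1ql3, Tenm2, Tenm3, Flrt2, Flrt3, Reck, Psap, Gpr137b and Gpr37l1 were picked once their values had been seen. A gene is counted but not reported here by name.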

Additional observations from a re-analysis of the deposited data

How the results depend on the processing

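No paired analysis was possible because there was 1 library per medium, and none could be left out. Scaling by median ratios or by trimmed means (TMM) left every call of the 97 genes and of the partner lists as reported and turned the sign of 1 of 20 measured receptor genes, Gpr137, which lay near 0. The calls depend on how low values are treated. With a pseudocount of 3 FPKM, or at least 5 FPKM, 0 receptor genes were called higher and 0 lower. With a pseudocount of 3 FPKM 1.31% of measured protein-coding rows were called higher and 0.932% lower. Among protein-coding rows with at least 5 FPKM the shares were 2.83% and 1.79%. With a pseudocount of 0.1 FPKM, or 2-fold in plain FPKM with an interval that excludes 1, 3 were called higher and 2 lower, and with a threshold of 1.5-fold 3 higher and 4 lower. With a pseudocount of 0.1 FPKM 3.92% of measured protein-coding rows were called higher and 2.44% lower, and at 1.5-fold 6.44% and 4.99%. The genes of G proteins, kinases, arrestins and RGS proteins had 2 called lower as reported. They had 4 with a pseudocount of 0.1 FPKM and in plain FPKM, and 6 at 1.5-fold, and 0 called higher with a pseudocount of 3 FPKM. The median of the ligand and partner list was 0.11 without a filter and 0.54 at 5 FPKM or more, and at 1.5-fold 7 of its genes were higher.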
